A study of Homo sapiens with 6 samples.

Results

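The MCM genes encode the core of the enzyme that unwinds DNA ahead of the replication fork and several relatives of it. All 9 genes named MCM2 to MCM10 were taken by symbol from a table of 57773 Ensembl gene IDs, and each matched 1 ID. The table comes from RPE1 cells, a retinal pigment epithelial line of human origin that was made immortal with telomerase. Group 1 is 3 libraries from cells given only DMSO, the solvent, and group 2 is 3 libraries from cells given 2.5 µM Nutlin-3, both for 24 h. No genetic change is labelled in either group. Nutlin-3 is a small molecule that keeps the ubiquitin ligase MDM2 off p53, so that p53 can act as a transcription factor. The series asks which genes are targets of p53 in these cells.

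MCM2 to MCM7 form a ring of 6 different subunits that is loaded onto replication origins in G1 and becomes, with CDC45 and the GINS complex, the active replicative helicase in S phase. MCM8 and MCM9 form a second complex known for its role in homologous recombination, and MCM10 is an unrelated protein by sequence that helps the helicase start. Genes of the ring are textbook targets of E2F transcription factors and are held down in resting cells by RB family proteins and the DREAM complex, which p21, the product of CDKN1A, favours.

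Promoter sequence is shown first, so that the members can be compared by it beside their values. The RefSeq table used (build GRCh38.p14) holds starts for 7 of the 9 genes, 9 starts in all, each with 250 bases before and 50 after the start. MCM4 and MCM5 have no entry. A match to the E2F consensus was defined as any of the 8-letter words TTTCGCGC, TTTGGCGC, TTTCCCGC and TTTGCCGC on either strand. Of all 35116 windows in the table, 3.31% hold at least 1 of them. Of the 7 MCM genes, 5 hold one: MCM2, MCM3, MCM6, MCM7 and MCM8. MCM9 and MCM10 hold none in this window. Each match is printed below on the strand of its gene, with capitals for the matched letters, which run longer where matches on both strands overlap. They are shown because the same letters recur in several ring genes.
MCM2, chr3:127598404-127598433, plus strand: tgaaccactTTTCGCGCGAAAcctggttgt
MCM3, chr6:52284728-52284757, minus strand: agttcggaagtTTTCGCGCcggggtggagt
MCM3, chr6:52284898-52284927, minus strand: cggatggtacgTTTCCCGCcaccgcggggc
MCM6, chr2:135876575-135876604, minus strand: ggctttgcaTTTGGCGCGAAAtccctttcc
MCM6, chr2:135876513-135876542, minus strand: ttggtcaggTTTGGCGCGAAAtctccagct
MCM7, chr7:100101388-100101417, minus strand: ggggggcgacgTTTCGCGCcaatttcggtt
MCM7, chr7:100101566-100101595, minus strand: cagctcggaccGCGGGAAAcccggcgcctg
MCM8, chr20:5950667-5950696, plus strand: ggatcactgaaGCGCCAAAaaagaatttag

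The word TTTCGCGC, present in 0.515% of all windows, lay within 10 bases of the RefSeq start in MCM2, MCM3 and MCM7, with its first base at positions 2, -4 and -9, counted from 0 at the start. MCM6 held a 12-letter match at 2 places farther from the start, with first bases at -152 and -90. Each of them includes TTTCGCGC on the opposite strand, at -148 and -86. MCM2 also held a 12-letter match, as printed above. The match of MCM8 began at position 26 and read on the opposite strand. MCM7 has 3 listed starts, and its matches belong to 1 of them. MCM10 holds TTTGGCGG, a word outside the set that was picked after its sequence was read and that occurs in 0.652% of all windows, at position 5. The pentamer CCAAT, another common promoter word, occurred in 6 of the 7 genes, all but MCM2, against 34.6% of all windows. The cell cycle homology word TTTGAA occurred in 0 of the 7 genes, against 15.2% of windows. A match describes letters and is not evidence of binding. The upstream stretch of MCM6, with its matches in capitals, and that of MCM9, without any, are given, 240 bases each up to position -11, for comparison.
MCM6, chr2:135876454-135876693, minus strand: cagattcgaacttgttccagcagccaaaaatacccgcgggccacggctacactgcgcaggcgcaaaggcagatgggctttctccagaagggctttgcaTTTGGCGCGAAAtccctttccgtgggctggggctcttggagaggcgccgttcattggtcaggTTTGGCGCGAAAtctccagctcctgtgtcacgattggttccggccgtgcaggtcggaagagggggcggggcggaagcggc
MCM9, chr6:118935170-118935409, minus strand: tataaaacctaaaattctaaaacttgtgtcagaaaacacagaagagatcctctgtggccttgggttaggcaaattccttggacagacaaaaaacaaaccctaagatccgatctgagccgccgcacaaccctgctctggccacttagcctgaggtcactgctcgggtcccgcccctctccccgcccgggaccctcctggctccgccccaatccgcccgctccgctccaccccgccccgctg

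**Figure D1:**
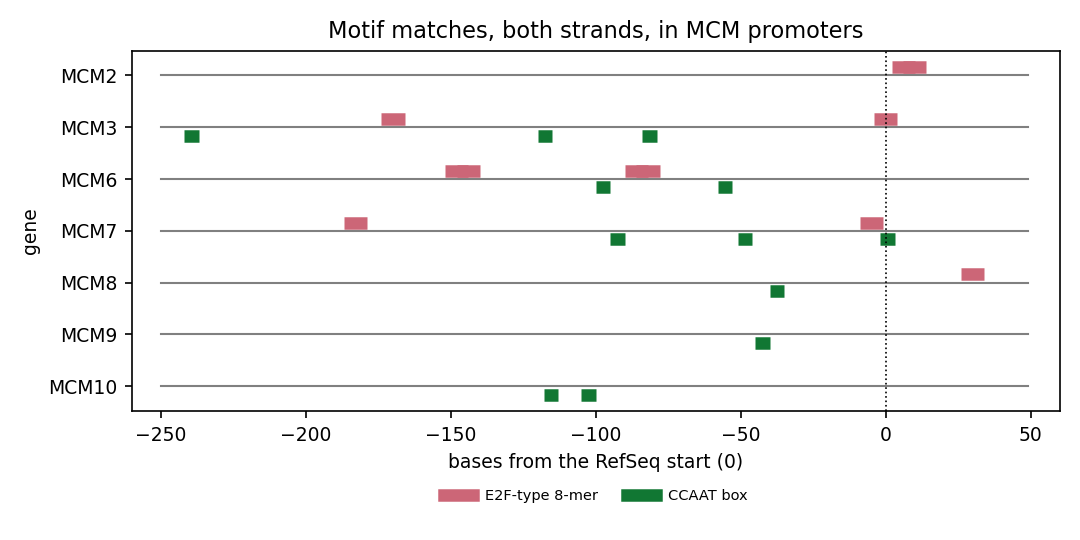
Position of E2F-type 8-letter words and CCAAT boxes, on either strand, in the promoter windows of 7 MCM genes (x axis: bases from the RefSeq start; for MCM7, the 1 of 3 starts that holds its matches is drawn). MCM2, MCM3, MCM6, MCM7 and MCM8 hold an E2F-type word, and MCM9 and MCM10 hold none.

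The libraries were first checked as a whole. Reads recovered from the table came to between 29.5 and 42.7 M per library, with DMSO replicate 1 the deepest. CDKN1A rose from 8.36 to 60.5 RPKM and MDM2 from 2.31 to 8.46 RPKM, as group means, while the proliferation marker MKI67 fell to 27.3% and PCNA, the sliding clamp, to 57.8% of the DMSO level (adjusted p for all 4 at most 0.0005 by limma). Of 7 retinal pigment epithelium markers, RPE65, RLBP1, BEST1, TYRP1 and PMEL were below 0.1 RPKM and OTX2 and MITF were above it, with summed levels of 3.25 to 3.69 RPKM in DMSO and 2.83 to 3.13 RPKM in Nutlin-3. OTX2 fell (adjusted p = 0.0333 by limma), and MITF did not pass. The simple epithelium keratins KRT8, KRT18 and KRT7 rose, while CDH1 and EPCAM were below 0.1 RPKM, and the 5 genes summed to between 43.4 and 48.0 RPKM in DMSO and 75.6 and 80.7 RPKM in Nutlin-3. The 5 blood cell markers summed to at most 0.0742 RPKM, with CD3E and HBB at 0 in every library. In bulk RNA, fewer cycling cells and less RNA per cell cannot be told apart, and the part of the fall of MKI67 in the MCM results was not tested.

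With Nutlin-3, all 8 MCM genes that entered the test fell, to between 29.1% and 34.7% of their DMSO level, and MCM9, which was too low for the test, stood at 72.7%. The share of all 19886 tested genes called lower was 18.4%, that called higher was 20.9%, and the 2 together made 39.2%. In all 9 MCM genes every Nutlin-3 library lay below every DMSO library, a pattern found in 25.7% of tested genes, beside 27.6% with the reverse. A fall to under 37% of DMSO, which those 8 genes showed, occurred in 3.05% of tested genes, and one to under 50% in 5.42%. The 8 genes had a median log2 change of -1.51, against 0.0058 over all genes tested.

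**Figure D2:**
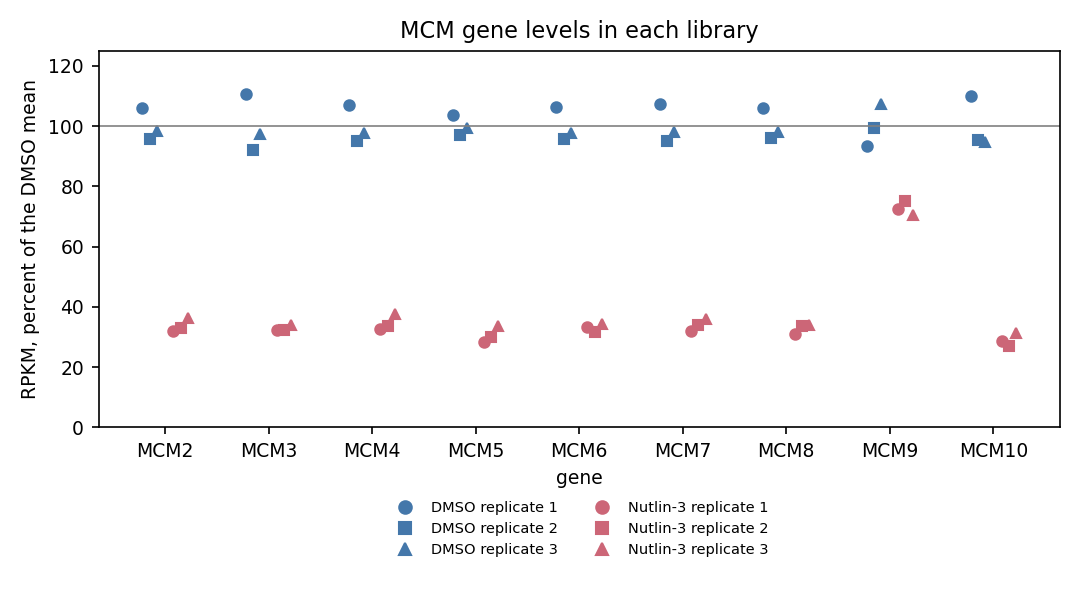
RPKM of each MCM gene in each of the 6 libraries as a percentage of the gene's DMSO mean (grey line at 100). In all 9 genes the 3 Nutlin-3 libraries lie below the 3 DMSO libraries, and MCM9 has the narrowest gap.

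The deposited RPKM are per kilobase of the whole gene, introns included, so the RPKM values below compare libraries and not genes. Among the ring subunits, MCM2 (ENSG00000073111), whose N-terminal part binds histones, was at 4.88, 4.41 and 4.54 RPKM in DMSO replicates 1 to 3 and at 1.47, 1.52 and 1.67 RPKM in Nutlin-3 replicates 1 to 3. The lowest DMSO library stood 2.74 RPKM above the highest Nutlin-3 library. On the log2(RPKM + 0.1) scale MCM2 changed by -1.51 (SE 0.062, adjusted p = 0.000130 by limma). MCM5 (ENSG00000100297), which with MCM2 forms the gate through which the ring opens, was at 4.95, 4.65 and 4.75 RPKM in DMSO and 1.35, 1.43 and 1.61 RPKM in Nutlin-3. It kept 30.6% of its DMSO level, the lowest share of the ring, and changed by -1.65 (SE 0.069, adjusted p = 0.000133 by limma). MCM3 (ENSG00000112118), the partner of MCM5 in the ring, was at 9.64, 8.03 and 8.49 RPKM in DMSO and 2.83, 2.82 and 2.95 RPKM in Nutlin-3, a log2 change of -1.57. Its Nutlin-3 libraries lay closer together than its DMSO libraries, with an SD of 0.0711 against 0.828 RPKM.

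The MCM4, MCM6 and MCM7 proteins form a stable subcomplex that has helicase activity by itself. MCM4 (ENSG00000104738) was at 12.9, 11.5 and 11.8 RPKM in DMSO and 3.96, 4.05 and 4.56 RPKM in Nutlin-3. MCM6 (ENSG00000076003) was at 3.05, 2.74 and 2.80 RPKM in DMSO and 0.956, 0.902 and 0.983 RPKM in Nutlin-3. MCM7 (ENSG00000166508), whose protein lies between those of MCM4 and MCM3, was at 26.2, 23.2 and 23.9 RPKM in DMSO and 7.84, 8.31 and 8.75 RPKM in Nutlin-3. Their log2 changes were -1.51, -1.50 and -1.55, with adjusted p-values of 0.000166, 0.000112 and 0.000130 by limma. The groups do not overlap in any of these genes. Across MCM2 to MCM7 the level kept under Nutlin-3 ran from 30.6% to 34.7%, so the 6 subunit genes fell by nearly the same factor. Each ranked among the 247 largest falls of the 19886 genes tested.

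MCM10 (ENSG00000065328), which joins the helicase when origins fire, was at 0.726, 0.630 and 0.626 RPKM in DMSO and 0.189, 0.179 and 0.208 RPKM in Nutlin-3. It kept 29.1% of its DMSO level, the lowest share of the family, and changed by -1.38 (SE 0.070, adjusted p = 0.000191 by limma). MCM8 (ENSG00000125885) was at 0.866, 0.785 and 0.799 RPKM in DMSO and 0.252, 0.274 and 0.277 RPKM in Nutlin-3. It kept 32.8% of its DMSO level, within the range of the ring genes, and changed by -1.32 (SE 0.050, adjusted p = 0.000121 by limma). The added 0.1 RPKM weighs on genes of low RPKM, so their changes look smaller on that scale. With 1 RPKM added in its place, MCM8 changed by -0.52 and MCM10 by -0.48, both still past the threshold. On recovered reads, with limma voom, MCM8 changed by -1.61 and MCM10 by -1.79, against -1.53 to -1.71 for the ring genes.

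MCM9 (ENSG00000111877), the partner of MCM8, was at 0.0966, 0.103 and 0.111 RPKM in DMSO and 0.0749, 0.0778 and 0.0727 RPKM in Nutlin-3. The groups do not overlap, and the gap between them was 0.0188 RPKM. Its mean over the libraries was under the minimum of 0.1 RPKM. Its span, 121721 bases, is the longest of the family, and its values rested on 269 to 497 reads per library. On recovered reads it fell by 0.45 on the log2 scale (SE 0.076, limma voom adjusted p = 4.05e-05), where 24.2% of 20772 genes were called lower and 50.1% in either direction. With no minimum on log2(RPKM + 0.1) it changed by -0.22 (adjusted p = 0.0322 by limma), and with a minimum of 0.05 RPKM, added after its level was seen, it did not pass (adjusted p = 0.0586 by limma). The call of MCM9 thus depends on the scale and the filter.

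**Figure D3:**
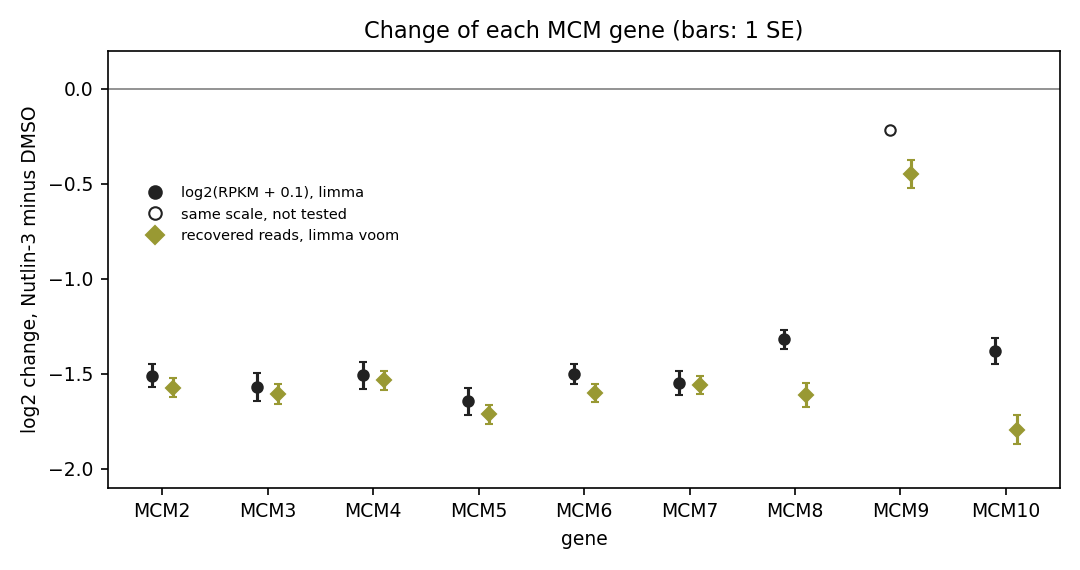
Change of each MCM gene as log2 Nutlin-3 minus DMSO, on log2(RPKM + 0.1) with limma and on recovered reads with limma voom (bars: 1 SE; open circle: not tested). All genes but MCM9 lie between -1.79 and -1.32, and MCM9 lies at -0.22 and -0.45.

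Whether members changed by different amounts was asked of their ratio within each library, for 4 ratios. The log2 ratio of MCM9 to MCM8 on RPKM + 0.1 was -2.30, -2.13 and -2.09 in DMSO and -1.01, -1.07 and -1.13 in Nutlin-3, a difference of 1.10. The ratio of MCM9 to MCM2 differed by 1.29. For all 4 ratios on this scale, every Nutlin-3 library was above every DMSO library. The exact 2-sided permutation test gave p = 0.1 for each (adjusted p = 0.1 over 4 ratios), the smallest value that 3 against 3 libraries allow. For the 2 MCM9 ratios, recovered reads gave differences of 1.15 and 1.11 (adjusted p = 0.133 for both, exact permutation test). With RPKM + 0.5 they were 0.71 and 1.25. The MCM10 and MCM8 ratios to MCM2 differed by 0.13 and 0.19 with RPKM + 0.1 and by 0.57 and 0.54 with RPKM + 0.5. On recovered reads they differed by -0.21 and -0.039, so their direction turned with the scale. The groups on reads did not overlap for MCM10 to MCM2 and overlapped for MCM8 to MCM2 (adjusted p = 0.133 and 0.4, exact permutation test).

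The 8 genes other than MCM9 also shared the highest library of each group. DMSO replicate 1 was the highest DMSO library in 8 of the 9 genes, against 41.4% of tested genes, and Nutlin-3 replicate 3 was the highest Nutlin-3 library in the same number, against 40.4%. MCM9 was instead highest in DMSO replicate 3 and in Nutlin-3 replicate 2. DMSO replicate 1 was also the deepest library, and the part of depth in this was not tested. These shares are descriptions, since the genes share libraries. Leaving out DMSO replicate 1, or any other library in turn, kept all 8 tested genes past the threshold, with adjusted p-values up to 0.00217 by limma.

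To compare levels between genes, recovered reads were divided by the length of merged exons. This takes every read as exonic, which was not tested, since the counter is not known. The span was 121721 bases against 12496 of merged exons in MCM9, and 9213 against 4386 in MCM7. If intron reads were counted, the levels and their order would not hold as exon levels. MCM7 stood highest in DMSO, at 51.2 ± 2.92 reads per kb of merged exons and M recovered reads (mean ± SD, n = 3, the unit of all levels in this paragraph), followed by MCM3 at 49.7 ± 4.34, which did not differ from MCM7 beyond this spread. MCM4 followed at 31.1 ± 1.71, MCM6 at 25.5 ± 1.28, MCM2 at 22.7 ± 1.03 and MCM5 at 16.5 ± 0.414. The genes outside the ring were lower, with MCM10 at 5.99 ± 0.477, MCM8 at 4.72 ± 0.217 and MCM9 at 1.00 ± 0.0712. The library values of MCM7 and MCM3 overlapped in DMSO, and those of the other neighbours in the order did not. Under Nutlin-3 the order was the same, from 16.3 ± 0.737 for MCM7 and 15.3 ± 0.285 for MCM3 through 7.90 ± 0.342 for MCM6 and 7.17 ± 0.415 for MCM2 down to 1.63 ± 0.115 for MCM10, 1.45 ± 0.0590 for MCM8 and 0.684 ± 0.0256 for MCM9. There the library values of MCM7 overlapped those of MCM3, and those of MCM6 overlapped those of MCM2. The highest ring gene was 3.10 times the lowest in DMSO and 3.44 times in Nutlin-3. The library size behind the RPKM was 0.991 to 1.01 times the recovered reads in DMSO and 0.926 to 0.945 times in Nutlin-3. Falls read from the levels here are therefore larger than the percentages of RPKM given above. These orders depend on the exon length chosen. With the principal transcript in place of merged exons MCM5 moved from the lowest to the fourth place of the ring, at 34.3 in DMSO, and MCM9 passed MCM8 under Nutlin-3, at 1.68 against 1.49.

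**Figure D4:**
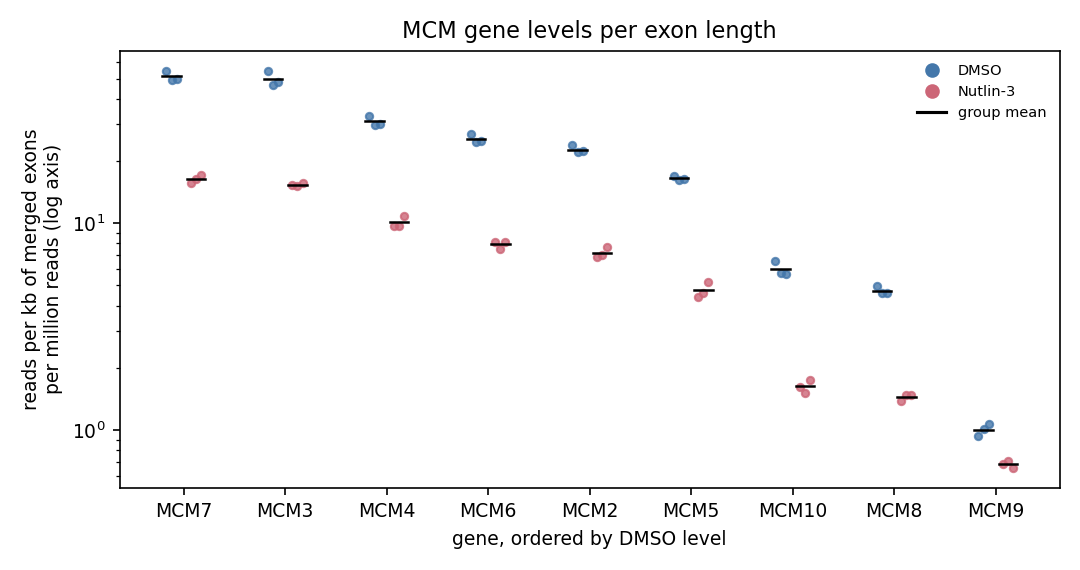
Reads per kb of merged exons and M recovered reads (log axis) for each MCM gene in each library, with group means as black lines. All reads are taken as exonic. The 6 ring genes lie above MCM10, MCM8 and MCM9 in both groups, and the order of the group means is the same in both.

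The 5 genes that start within 1000 bases of an MCM gene on the other strand were at 62.9% to 116% of their DMSO level. PRKDC, the catalytic subunit of the DNA-dependent kinase of end joining, has its annotated start 2 bases from that of MCM4 and was at 66.8% of its DMSO level, against 34.7% for MCM4. It fell by 0.56 on the log2 scale (adjusted p = 0.000238 by limma). TRMT6, a subunit of a tRNA methyltransferase that starts 94 bases from MCM8, fell to 79.4% (adjusted p = 0.0102 by limma). TPRA1 starts 44 bases from MCM2 and rose to 116% of its DMSO level (adjusted p = 0.00718 by limma). AP4M1, a subunit of an adaptor complex in vesicle transport, starts 391 bases from MCM7 and did not pass (101%, adjusted p = 0.809 by limma). The antisense gene ENSG00000253194, 392 bases from the start of MCM9, was under the minimum level, at 62.9% of DMSO. The difference between a neighbour and its MCM gene was not tested.

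Annotated exons of other genes cover part of some MCM genes, all on the opposite strand. The share of exon length was 8.94% of MCM7, by AP4M1, 1.10% of MCM9, by the histone chaperone gene ASF1A, and 22.7% of MCM2, by the antisense gene AC023593.1, which was not analysed here. The strand setting of the authors' counting was not stated, so reads of such pairs may not be separated.

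Most genes listed under origin licensing and under helicase activation were called lower. Among 11 origin licensing genes the call was lower for 10 and higher for 0, and the median log2 change was -0.77 (9 genes with any 1 library left out). The licensing factors CDT1, ORC1 and CDC6 fell furthest, to 31.9%, 25.2% and 33.2% of DMSO. LRWD1, which binds the origin recognition complex, had the smallest change, 0.06 (adjusted p = 0.562 by limma). All 17 genes of helicase activation and the CMG helicase fell, with a median of -1.26. CLSPN, a mediator of the replication checkpoint, kept 27.4%, CDC45 26.5% and the GINS subunit GINS2 30.7%, and TIPIN, of the fork protection complex, fell least, to 70.5%. Within the origin recognition complex, ORC1 and ORC6 kept 25.2% and 40.2%, while ORC2, ORC3, ORC4 and ORC5, read beside them after their values were seen, kept between 68.3% and 91.8%.

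All 11 genes of the list of recombination partners of MCM8 and MCM9 fell, with a median of -1.17. XRCC3, which acts in homologous recombination, kept 31.2%, BRCA1, which acts in the same pathway, 30.4% and XRCC2, also of that pathway, 34.5%, and PALB2, which links BRCA1 to BRCA2, fell least, to 81.8%. HROB, known as the loader of MCM8 and MCM9 and named after its value was seen, kept 33.9%. Among 18 genes of the E2F and pocket protein list the call was lower for 12 and higher for 0, and the median was -0.45. This list also holds genes of neither kind, namely TFDP1, TFDP2, LIN9, LIN37, LIN52, LIN54 and RBBP4. Of these, TFDP1, LIN9, LIN52, LIN54 and RBBP4 were among those called lower. The E2F factor gene E2F8 fell from 0.680 to 0.136 RPKM, E2F1 and E2F2 fell to 29.3% and 24.1% of DMSO, and the pocket protein gene RBL2 had the smallest change, -0.015 (adjusted p = 0.718 by limma). The lists were chosen with earlier results of these libraries known, and beside them 18.4% of all tested genes were called lower. The list medians depend on the scale. On recovered reads with limma voom they were -1.60 for the MCM family, MCM9 included, and -1.53 for the recombination partners. The same fit gave -1.43 for helicase activation, -0.82 for licensing and -0.52 for the E2F list.

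**Figure D5:**
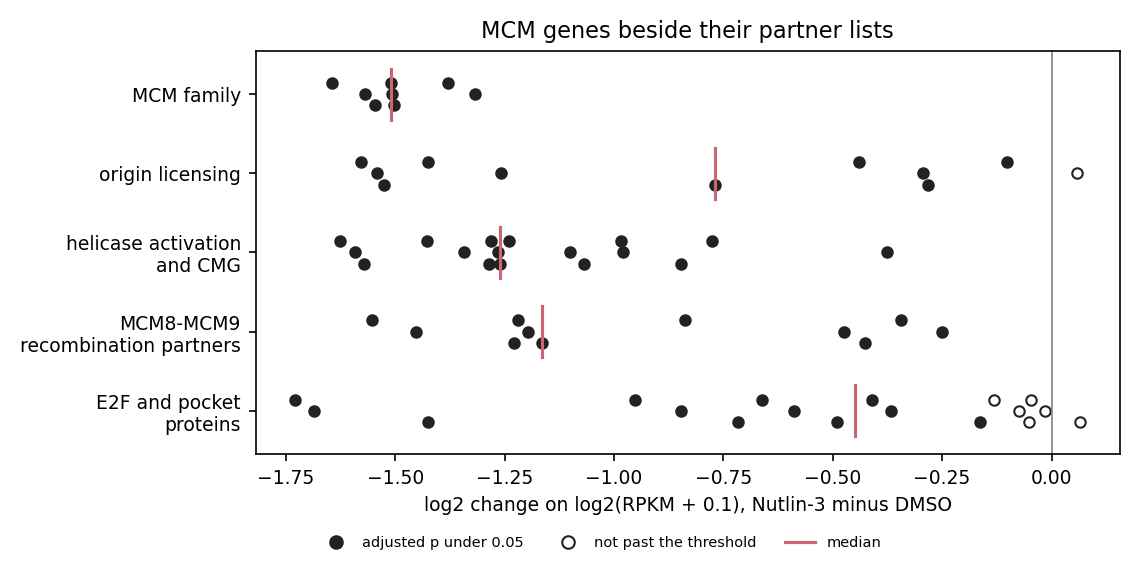
Log2 change on log2(RPKM + 0.1) of each tested gene in the MCM family and 4 partner lists (filled: adjusted p under 0.05 by limma; open: not past the threshold; line: median of the list). On this scale the medians run from -1.51 in the MCM family, without MCM9, to -0.45 in the list of E2F and pocket proteins.

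The 5 genes outside the lists whose profile over the 6 libraries lay nearest to the mean profile of MCM2 to MCM7, among 8677 genes whose mean reached 1 RPKM, were BIRC5, ANLN, TOP2A, HMMR and BUB1. Likeness was the Euclidean distance between centred log2(RPKM + 0.1) values, which ran from 0.058 for BIRC5 to 0.075 for BUB1. Over the same measure the ring genes themselves stood at 0.044 (MCM7) to 0.149 (MCM5) from their mean. BIRC5, which encodes survivin of the chromosomal passenger complex, was at 33.6% of DMSO and TOP2A, the topoisomerase of dividing cells, at 32.9%. Values near those of the ring genes follow from the choice by likeness and are not a separate result.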

How the data were processed

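The libraries are TruSeq libraries of poly(A) RNA that keep the strand, per the labels' protocols. The authors deposited RPKM, 1 column per library, and 0 columns were left unmapped. The submitters' processing notes name CASAVA 1.8.2, TopHat2, edgeR and hg19 without roles. No source used here gives the counter, annotation or strand setting. With gene spans from GENCODE 29, 89.2% of values from 0.5 to 50 reads came within 0.01 of a whole read (31.3% with merged exon lengths), so the deposited RPKM are per gene span, and reads were recovered from them. For 8799 genes the GENCODE span did not give whole reads in every library, and a length that did was searched for. MCM2 and MCM8 are among them, with lengths of 24211 and 44555 bases against spans of 24214 and 48326.

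The main test was limma 3.58.1 (R 4.3.3) with a mean-variance trend and the 2 groups on log2(RPKM + 0.1), for genes whose mean reached 0.1 RPKM. p-values were adjusted by Benjamini-Hochberg over those genes, with a threshold of 0.05. The pseudocount makes changes of weakly expressed genes look smaller. Percentages of DMSO are ratios of mean RPKM. limma voom ran on genes whose mean reached 10 recovered reads. Scripts were tested on simulated data. Whether replicates were grown separately is not labelled: the p-values cover the spread among these libraries, which may be technical. Libraries of 1 group differed by more than counting noise (chi-square per gene 1.82 to 5.07). The MCM genes, lists and tests were chosen with earlier results of these data known.

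Named genes are, by rule, the MCM genes, 4 check genes, the largest falls and rises and the smallest change of each partner list, genes starting within 1000 bases on the other strand, and the 5 most alike profiles. Of 87 list symbols, 87 matched. GENCODE 29 served for names, lengths and distances, and its build differs from hg19. Promoters come from RefSeq.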

Additional observations from a re-analysis of the deposited data

How the results depend on the processing

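The fall of the 8 tested MCM genes kept its direction and its call under every alternative in which they were tested, with adjusted p-values up to 0.00765 by limma, and MCM10 was not tested with a minimum of 0.5 RPKM. The size depends on the pseudocount. With 0.5 RPKM added, MCM8 changed by -0.78 and MCM10 by -0.75, and with 1 RPKM by -0.52 and -0.48, where MCM6 changed by -0.99, against -1.32, -1.38 and -1.50 with 0.1 RPKM. With 0.5 RPKM the difference in the ratio of MCM9 to MCM8 was 0.71, and those of MCM10 and MCM8 to MCM2 were 0.57 and 0.54. Leaving out 1 library moved MCM2 between -1.56 and -1.47 and MCM10 between -1.42 and -1.32. MCM9, without a test in the main analysis, passed on recovered reads (-0.45) and with no minimum (-0.22). With a replicate block 5520 genes were called in place of 7803, 2954 higher and 2566 lower, and all 8 MCM genes kept their call. Same-numbered libraries did not deviate together (correlations -0.0035, 0.0271 and 0.0177). Whether the numbers pair the libraries is not labelled. These correlations cannot decide it, because the deviations were taken from means of only 3 libraries per group. With a minimum of 0.5 RPKM fewer genes were tested. There 6 genes of the licensing, 5 of the recombination and 6 of the E2F list were called lower, against 10, 11 and 12. The ratios of MCM10 and MCM8 to MCM2 turned to -0.21 and -0.039 on recovered reads without a pseudocount. Levels in DMSO with the longest transcript were 30.7 for MCM2, 56.6 for MCM3, 51.8 for MCM4, 26.3 for MCM5, 28.1 for MCM6, 72.8 for MCM7, 1.65 for MCM9 and 7.12 for MCM10. With the principal transcript, chosen after seeing the data, they were the same for MCM2, MCM3, MCM4 and MCM6 and were 34.3 for MCM5, 76.0 for MCM7, 2.46 for MCM9 and 10.3 for MCM10. The quantile and median-of-ratios scalings moved the median change of all genes by less than 0.1. MCM9 and MCM10 rested on the fewest reads, with lowest library values of 269 and 296.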

Other observations

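MCM7 hosts 3 microRNA genes in an intron, MIR25, MIR93 and MIR106B, which have rows of their own in the table. Reads on MIR25 were 17, 13 and 15 in DMSO and 5, 6 and 5 in Nutlin-3, a log2 change of -1.36 on log2(RPKM + 0.1) (adjusted p = 0.000133 by limma), beside -1.55 for its host. The fit on RPKM does not use read counts, so this p-value leaves out the counting noise of so few reads. MIR93 and MIR106B had at most 6 reads in any library and did not pass (adjusted p = 0.607 and 0.311 by limma). Poly(A) libraries do not measure mature microRNAs, and reads of the host transcript and of the hairpin cannot be told apart. These genes were chosen after their place in MCM7 was seen.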
